A study of Mus musculus with 12 samples.

Results

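The transcripts of MECs, a mouse endothelial cell line of intraembryonic origin, were compared between cells given BMP6 for 4 h and mock-treated control cells. The comparison rests on 6 of the 12 arrays of the study, 3 for BMP6 at 4 h and 3 for control, taken by their titles and paired by the replicate number in the title. The other 6 arrays are of MECs given BMP6 for 12 or 24 h, and they enter only the shared estimate of the spread and the comparisons between times. All 12 arrays come from the same line, per the labels in independent biological triplicates, and neither the strain, the dose of BMP6 nor a culture time for the controls is given in the sources used here. RNA of the cells carried the dye Cy5 and was hybridised with a universal mouse reference RNA, which carried Cy3, to a 2-colour Agilent oligonucleotide array. The series title names cyclooxygenase 2 and the prostanoids made through it as the subject.

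A level is the deposited log ratio of an array, read here as log2 of cells over reference RNA, and a change is the difference between the BMP6 4 h and control levels in log2 units. The dyes give this direction as the likely one, but neither the sign nor the base of the logarithm is stated; with the sign turned, each rise below would be a fall and each fall a rise. Each array held 20280 values, with medians between -0.044 and 0.002, and 10576 of these values carried the name of 1 of 8267 genes. The names rest on an order of the array positions that was worked out from the data: under it, the levels of the first 2 probes of a gene correlated at r = 0.471 over 1831 genes, against 0.021 at the deposited row numbers (genes are not independent replicates). No spot intensities were used here, so whether a probe was detected is not stated, and precision is limited by the number of arrays.

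BMP6 is a secreted growth factor of the TGF-beta superfamily. It binds type I and type II serine/threonine kinase receptors, which phosphorylate SMAD1, SMAD5 and SMAD8, and these enter the nucleus with SMAD4 and switch on targets such as the Id genes. BMP receptors also reach other kinase pathways, and in endothelium BMP signalling is known for roles in vessel growth and permeability. The endothelial label of the line was checked against its markers. All 9 measured endothelial markers lay below the reference RNA in control cells, with a median level of -0.87: Pecam1 averaged -1.69 ± 0.11 after 4 h of BMP6 and -1.42 ± 0.24 in control, and Cdh5, the endothelial cadherin, -1.73 ± 0.09 and -1.62 ± 0.08 (SD, n = 3 each). On the same measure, control medians were -0.92 for epithelial, -0.63 for blood cell and -0.99 for liver, testis and brain markers. They were 0.01 for smooth muscle and 0.08 for fibroblast markers, so the endothelial markers did not stand out as high in these cells. A ratio to a pooled reference does not show that a transcript is absent, and with the sign turned the endothelial markers would lie above the reference. In such RNA from whole cultures, fewer cells of a type and less RNA per cell cannot be told apart.

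After 4 h of BMP6, 498 of the 8267 genes differed from control, which is 6.02% of those tested: 188 genes (2.27%) rose and 310 (3.75%) fell, at an adjusted p under 0.05 in the paired limma fit. Counts of called list members below are to be read against these shares, and counts above control against 3931 of all 8267 genes. Wnt2, Ccn2, Ptgs2 and Tnfrsf12a rose at least 2-fold, and Adamts5 and Cavin2 fell at least 2-fold. Most changes were small. The median change was 0.364 among the genes that rose, 28 of which rose at least 1.5-fold, and -0.312 among those that fell, of which 21 fell at least 1.5-fold. Each of the 498 genes moved the same way in 3 of 3 pairs, as did 2881 of all 8267. The 3 BMP6 4 h arrays lay clear of the 3 control arrays for 121 of the 188 genes and for 201 of the 310, and for 838 (10.1%) of all genes.

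How many genes passed depended on the pairing and on replicate 2. Arrays of the same number deviated together from their group means, with correlations between BMP6 4 h and control arrays of 0.601, 0.604 and 0.488 for replicates 1, 2 and 3. Without the pairing, 14 genes (0.169%) passed (Wnt2, Ccn2, Ptgs2, Tnfrsf12a, Hbegf, Hmga2, Il1rap, Vcl, Adarb1 and Prkcd rose, and Cavin2, Sema3c, Arhgap18 and Kat2b fell), and each other gene said below to have changed did so in the paired fit only. Leaving out the 4 arrays numbered 2 left 20 genes (0.242%), against 139 (1.68%) without those numbered 3 and 364 (4.4%) without those numbered 1. Leaving out 1 array at a time left 208 genes without control replicate 2, 238 without BMP6 4 h replicate 2 and 215 without BMP6 4 h replicate 3. Without control replicate 3, the balance turned to 240 genes higher and 160 lower.

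**Figure D1:**
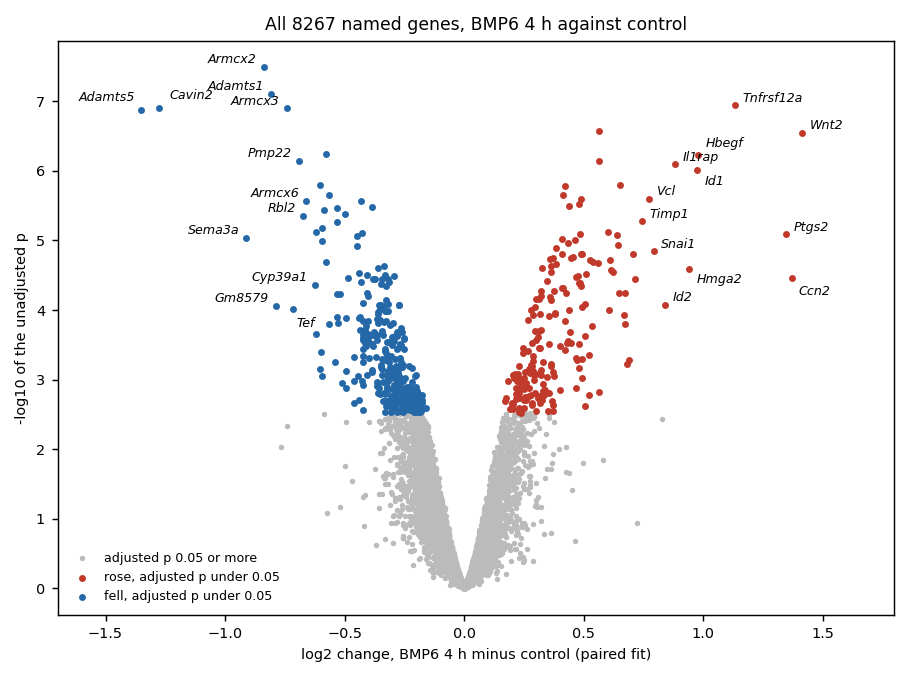
Change of each of the 8267 named genes after 4 h of BMP6 (horizontal axis, log2 units, BMP6 4 h minus control) against its unadjusted p (vertical axis, -log10), 1 point a gene, from the paired fit. Red points are the 188 genes that rose, blue points the 310 that fell, grey points did not pass, and the 12 leading genes of each direction are named.

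The 12 genes with the greatest rise and the 12 with the greatest fall were taken among the 168 genes, 84 in each direction, that passed with each of the 12 arrays left out in turn. The promoters of 5 genes that rose are shown: Id2 and Id3 as targets of SMAD1 and SMAD5, Ptgs2 as the cyclooxygenase gene of the series title, Wnt2 for its rise, and Vcl because its window held a CArG box, so they were not chosen apart from their letters. The sequences are the 250 bases before the transcription start in RefSeq's mouse table (GRCm38.p6), read on the strand of the gene. Capitals mark letters that were searched for on both strands: GGCGCC, a GC-rich element bound by SMAD1 and SMAD5; GTCTG, the core of the SMAD binding element (CAGAC on the other strand); GGAATG, bound by the TEAD partners of YAP (CATTCC on the other strand); and the CArG box of serum response factor.
Id2 (chr12:25096093-25096342, minus strand): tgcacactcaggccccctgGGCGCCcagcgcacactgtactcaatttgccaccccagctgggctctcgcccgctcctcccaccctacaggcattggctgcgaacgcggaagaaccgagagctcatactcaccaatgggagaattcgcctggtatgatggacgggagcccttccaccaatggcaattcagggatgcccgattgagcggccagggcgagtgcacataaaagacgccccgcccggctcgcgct
Id3 (chr4:136143572-136143821, plus strand): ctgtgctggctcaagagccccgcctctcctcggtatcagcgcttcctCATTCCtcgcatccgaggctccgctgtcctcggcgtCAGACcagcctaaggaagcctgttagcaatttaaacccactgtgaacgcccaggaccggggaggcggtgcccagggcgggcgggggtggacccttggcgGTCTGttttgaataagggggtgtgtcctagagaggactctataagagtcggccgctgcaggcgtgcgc
Ptgs2 (chr1:150099781-150100030, plus strand): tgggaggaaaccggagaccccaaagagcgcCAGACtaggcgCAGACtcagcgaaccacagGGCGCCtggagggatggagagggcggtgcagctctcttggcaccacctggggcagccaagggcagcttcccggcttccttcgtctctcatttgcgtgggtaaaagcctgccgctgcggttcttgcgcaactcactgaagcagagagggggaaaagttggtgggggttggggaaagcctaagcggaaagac
Wnt2 (chr6:18030446-18030695, minus strand): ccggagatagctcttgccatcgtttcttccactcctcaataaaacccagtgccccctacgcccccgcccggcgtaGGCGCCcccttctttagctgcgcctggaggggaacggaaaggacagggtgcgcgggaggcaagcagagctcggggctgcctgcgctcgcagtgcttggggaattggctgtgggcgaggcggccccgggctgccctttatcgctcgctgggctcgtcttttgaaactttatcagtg
Vcl (chr14:20929148-20929397, plus strand): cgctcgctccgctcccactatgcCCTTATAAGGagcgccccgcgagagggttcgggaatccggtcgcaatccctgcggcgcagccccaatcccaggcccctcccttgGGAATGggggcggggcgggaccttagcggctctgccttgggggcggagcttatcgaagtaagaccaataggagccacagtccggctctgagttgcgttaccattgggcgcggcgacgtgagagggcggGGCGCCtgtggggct
GGCGCC stood in 4 of these windows, those of Id2, Ptgs2, Wnt2 and Vcl, between 231 and 10 bases before the start. These are also the 4 with it among the 9 leading genes that rose and have a promoter entry: the windows of Hmga2, Il1rap, Snai1, Timp1 and Tnfrsf12a held none. The window of Id3 held GTCTG at 2 places and GGAATG at 1, and that of Ptgs2 held GTCTG at 2 places. Vcl had both a GGAATG and a CArG box, with the CArG box beginning 227 bases before the start. GGCGCC was not rare: it stood in 18.7% of the promoter entries of genes that rose and in 11.9% of those of genes that fell, against 16.4% of the entries of all measured genes and 9.59% of all 32851 entries. GTCTG stood in 33.7% of the entries of genes that rose and in 40.1% of those of all measured genes, GGAATG in 11.9% and 10.9%, and the CArG box in 1.04% and 1.19%. TGANTCA and TGACNNNGC (N any base) were also searched for. They stood in 7.77% and 13.5% of the entries of genes that rose, and in 3.58% and 11.6% of those of genes that fell. Over all measured genes their shares were 4.65% and 11.4%. These matches describe letters and were not tested as binding sites.

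Id1, Id2 and Id3, targets of BMP signalling that encode inhibitors of basic helix-loop-helix transcription factors, rose. Id1 had levels of 1.07, 1.67 and 1.81 on BMP6 4 h arrays 1, 2 and 3, against 0.17, 0.37 and 1.07 on control arrays 1, 2 and 3. The groups touched, because control replicate 3 lay at the level of BMP6 4 h replicate 1, but each pair rose, for a change of 0.98 (SE 0.09, adjusted p 0.00058 paired and 0.2 unpaired). Id2 had 0.87, 0.18 and 0.64 after BMP6 and -0.41, -0.69 and 0.26 in control, with a change of 0.84 (SE 0.13, adjusted p 0.0059). Its groups overlapped too, since replicate 2 was lowest in both. Id3 had 1.86, 1.49 and 1.66 after BMP6 and 1.23, 0.68 and 1.20 in control, with no overlap and a change of 0.64 (SE 0.08, adjusted p 0.00177).

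These were the 3 called genes among 18 measured BMP and SMAD1/5 targets, none of which fell, and 16 of the 18 lay above control, with a median change of 0.125 against -0.006 over all genes. The other 15 did not pass. Among them were Gata4, a cardiac transcription factor (0.29, adjusted p 0.104), Nog, the secreted BMP antagonist noggin (0.25, 0.187), and the Notch effectors Hey1 (0.03) and Hey2 (0.03). Without replicate 2, Id1 was the 1 of the 18 that passed. Of 19 Notch pathway genes, 0 passed in the paired limma fit, and their median change was 0.03.

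Of 37 measured members of the TGF-beta superfamily and its signalling chain, 4 rose and 1 fell (median change 0.05). Inhba, which encodes the shared subunit of activin A and inhibin A, had 2.06, 1.88 and 1.86 after BMP6 and 1.63, 0.84 and 1.31 in control, clear of each other, for a change of 0.67 (SE 0.12, adjusted p 0.00837). The ligand gene Tgfb1 rose by 0.45 (SE 0.06, adjusted p 0.00265), while Tgfb2 fell by 0.32 (SE 0.08, adjusted p 0.0394). Among receptors, Acvr1, a type I receptor that binds BMP6, had 0.47, 0.38 and 0.32 after BMP6 and 0.12, 0.10 and -0.02 in control and rose by 0.32 (SE 0.05, adjusted p 0.00446). The type II receptor Bmpr2 (0.18, adjusted p 0.0656) and the type I receptor Bmpr1a (-0.10, 0.315) did not pass, nor did Bmp6 itself (0.05, 0.659). Skil, the SMAD corepressor SnoN, rose by 0.57 (SE 0.05, adjusted p 0.000293), with 0.15, 0.31 and 0.35 after BMP6 and -0.40, -0.36 and -0.12 in control. The signal-carrying Smad1 (0.13), Smad5 (-0.04) and Smad4 (-0.08) did not pass.

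Ptgs2, which encodes cyclooxygenase 2, the inducible enzyme that commits arachidonic acid to prostanoids, stood far above the reference RNA and rose further. Its levels were 4.08, 4.37 and 4.57 on the BMP6 4 h arrays and 2.71, 2.74 and 3.52 on the control arrays. All BMP6 values exceeded all control values, though control replicate 3 stood above its fellows, and the change was 1.35 (SE 0.16, 2.54-fold, adjusted p 0.00177 paired and 0.0229 unpaired). Ptgis, the synthase that turns the cyclooxygenase product into prostacyclin, had 1.89, 2.06 and 2.19 after BMP6 and 1.33, 1.56 and 1.87 in control, without overlap. It rose by 0.46 (SE 0.06, adjusted p 0.0019 paired and 0.387 unpaired).

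No other member of the 12 measured prostanoid genes passed, and the list's median change was 0.07. The prostaglandin E synthase Ptges had -0.83, -0.60 and -0.59 after BMP6 and -0.76, -0.69 and -0.79 in control (change 0.07, adjusted p 0.559). The phospholipase Pla2g4a, which frees arachidonic acid, changed by 0.19 (adjusted p 0.16) and the receptor Ptger2 by -0.22 (adjusted p 0.0709). Without replicate 2 none of the 12 passed, Ptgs2 and Ptgis included.

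Wnt2, a secreted Wnt signal known from vessel and lung development, had the greatest rise of all genes. It lay above the reference RNA after BMP6, at 0.87, 0.25 and 0.35, and below it in control, at -0.98, -0.999 and -0.78. The groups stood 1.03 log2 units apart, with a change of 1.41 (SE 0.12, 2.66-fold, adjusted p 0.000293 paired and 0.0139 unpaired). Of 29 measured Wnt ligands, receptors and modulators Wnt2 was the 1 that rose, and 5 of the 29 lay above control (median -0.05). Bcl9l, a beta-catenin coactivator, fell by 0.40 (SE 0.07, adjusted p 0.0105). It was the 1 of the list that fell, and over all genes 2.27% rose and 3.75% fell.

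Both measured ligands of the EGF receptor rose, and the gene of the receptor did not pass. Hbegf, the heparin-binding ligand, had 0.88, 1.27 and 1.06 after BMP6 and 0.06, -0.01 and 0.23 in control. The groups were clear of each other by 0.66, and the change was 0.98 (SE 0.09, adjusted p 0.000485 paired and 0.00152 unpaired). Ereg, which encodes epiregulin, rose by 0.54 (SE 0.09, adjusted p 0.00872), with -0.10, 0.65 and 0.40 after BMP6 and -0.34, -0.09 and -0.23 in control. Replicate 1 moved least. The receptor Egfr changed by -0.06 (adjusted p 0.709).

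Feedback genes of the ERK kinase pathway, which lies below that receptor, rose in part: 6 of 20 measured passed, each upward, and the median change was 0.11. The ERK phosphatase Dusp6 had -0.53, 0.31 and -0.01 after BMP6 and -1.12, -0.73 and -0.50 in control, for a change of 0.71 (SE 0.09, adjusted p 0.00246). BMP6 4 h replicate 1 was no higher than control replicate 3, so the groups overlapped although each pair rose. Dusp4, a related phosphatase, rose by 0.65 (adjusted p 0.00463), and Errfi1, an inhibitor of the EGF receptor itself, by 0.68 (adjusted p 0.0197). Ier3 rose by 0.52, Phlda1 by 0.51 and the transcription factor gene Myc by 0.32 (adjusted p 0.0164, 0.0109 and 0.00498). The immediate early factors Egr1 (0.44, adjusted p 0.149), Fos (-0.05) and Jun (0.00) did not pass. Without replicate 2, 1 of the 20 passed.

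The matrix signal Ccn2 and the adhesion protein gene Vcl rose. Ccn2, a secreted matrix protein also called connective tissue growth factor and a standard target of YAP, had 1.58, 1.98 and 1.22 after BMP6 and 0.31, 0.05 and 0.29 in control. The BMP6 arrays spread over 0.76 log2 units but all lay above control by 0.91 or more, for a change of 1.37 (SE 0.20, 2.59-fold, adjusted p 0.00354 paired and 0.0362 unpaired). Vcl, which encodes vinculin, the linker of adhesions to actin, had 1.65, 1.74 and 1.71 after BMP6 and 1.08, 0.92 and 0.79 in control. Its BMP6 arrays lay within 0.09 of each other, and it rose by 0.77 (SE 0.08, adjusted p 0.000987 paired and 0.0366 unpaired). The list of YAP and serum response factor targets and actin adhesion genes had 28 measured members. Of these, 4 rose and none fell, with a median change of 0.09. The other 2 were Actn1, the crosslinker alpha-actinin (0.48, SE 0.05, adjusted p 0.00104), and Cnn1, a calponin of smooth muscle (0.25, SE 0.05, adjusted p 0.0135). Without replicate 2, Ccn2 was the 1 of the 28 that passed. Cnn1 was the 1 of 7 smooth muscle markers that passed. Their mean level ran from -0.808 to -0.522 on the BMP6 4 h arrays and from -0.806 to -0.66 on the control arrays, and their part in the result was not tested.

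**Figure D2:**
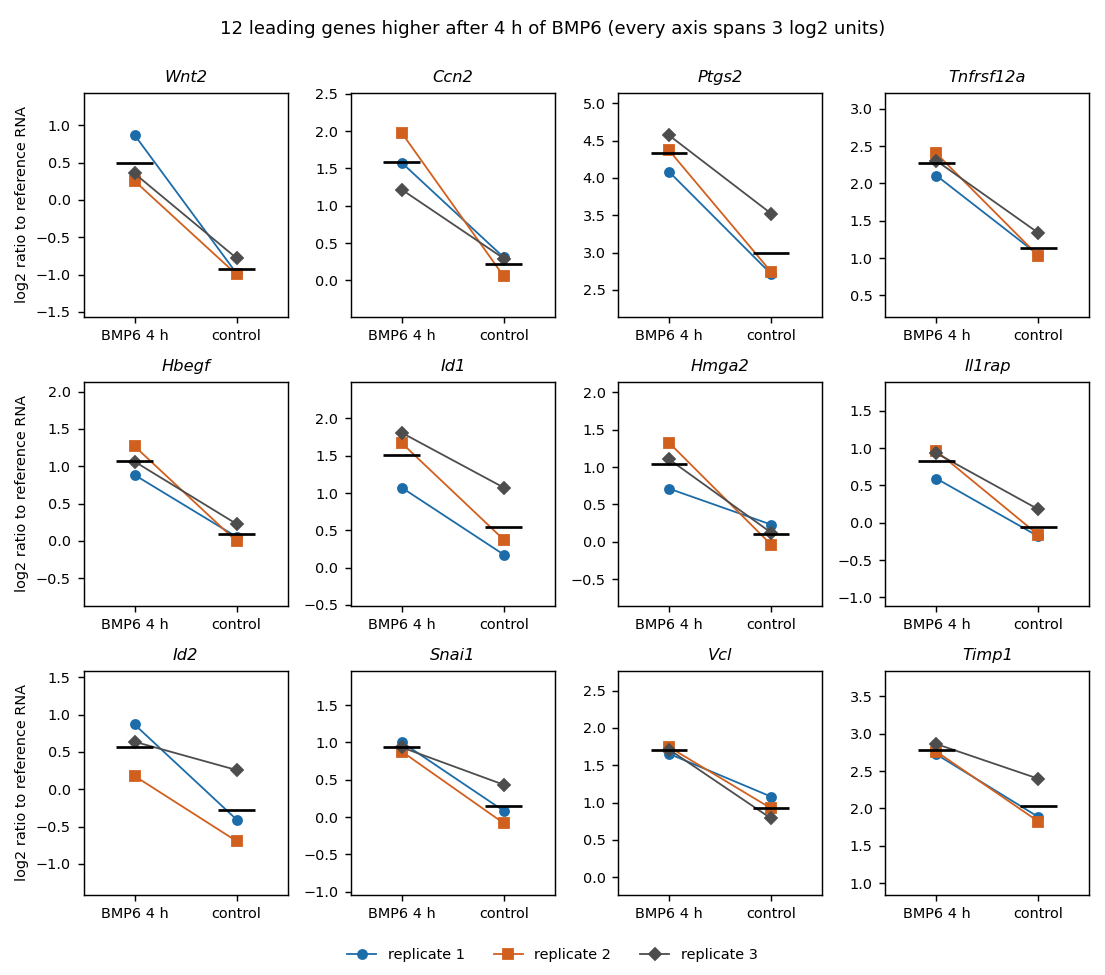
Levels (log2 ratio to the reference RNA) of the 12 leading genes that rose, on the 3 BMP6 4 h arrays and the 3 control arrays; lines join arrays of the same replicate number and black bars are group means. Every line falls towards control, and the groups overlap for Id1 and Id2 and for none of the other 10 genes. The genes were chosen among those that passed and moved alike in each pair, and 10.1% of all genes had no overlap.

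Tnfrsf12a, through which the cytokine TWEAK acts, rose in each pair. It had 2.11, 2.40 and 2.30 after BMP6 and 1.04, 1.03 and 1.34 in control, a gap of 0.77 between the groups. The change was 1.13 (SE 0.09, 2.20-fold, adjusted p 0.000187 paired and 0.00104 unpaired). It led the 4 of 30 genes of the TNF family and NF-kappaB that rose, of which none fell (median change 0.03). Tnfaip3, a feedback inhibitor of NF-kappaB, rose by 0.43 (SE 0.08, adjusted p 0.012), the decoy receptor Tnfrsf23 by 0.33 and the cytokine-responsive Tnfaip2 by 0.32 (adjusted p 0.0388 and 0.0357). The 3 Tnfaip2 probes gave 0.50, 0.42 and 0.03. Tnf itself changed by -0.07 (adjusted p 0.733).

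Among 35 interleukin, chemokine and receptor genes, 3 rose and none fell (median 0.04). Il1rap, the shared signalling chain of interleukin 1 receptors, had 0.59, 0.96 and 0.93 after BMP6 and -0.18, -0.17 and 0.18 in control, and rose by 0.88 (SE 0.08, adjusted p 0.000516 paired and 0.0233 unpaired). The monocyte chemokine Ccl2 rose by 0.57 (SE 0.13, adjusted p 0.034); its levels, 1.70, 2.25 and 2.57 after BMP6 and 1.39, 1.46 and 1.97 in control, overlapped, and the call held in 4 of the 12 fits that left out 1 array. The neutrophil growth factor gene Csf3 rose by 0.22 (adjusted p 0.0273). Cxcl12, a chemokine that guides progenitor cells, had 3.19, 2.18 and 2.25 after BMP6 and 3.18, 2.61 and 3.34 in control, with replicate 1 level and the other pairs lower (change -0.50, adjusted p 0.13). Cd44, the hyaluronan receptor, was the 1 of 9 leukocyte adhesion molecules to pass and rose by 0.47 (SE 0.07, adjusted p 0.00354). Its 2 probes disagreed in size, at 0.82 (adjusted p 0.0015 over all probes) and 0.12 (0.504). Of 19 interferon response genes none rose, and Tgtp1, an interferon-inducible GTPase, fell by 0.60 (SE 0.13, adjusted p 0.0218).

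Angiogenic growth factors and receptors were split, with 4 of 23 higher and 1 lower (median change 0.04). Fgf2, a growth factor for endothelium, had 0.95, 1.34 and 0.94 after BMP6 and 0.56, 0.72 and 0.08 in control, clear of each other, and rose by 0.62 (SE 0.09, adjusted p 0.00328). Pdgfa, a ligand that acts on mesenchymal cells, rose by 0.44 (SE 0.07, adjusted p 0.00643), with -0.17, -0.08 and -0.23 after BMP6 and -0.53, -0.72 and -0.54 in control. The receptor gene Fgfr3 and Flt1, whose product is a receptor and decoy for VEGF, rose by 0.29 and 0.23 (adjusted p 0.0182 and 0.0366). Vegfd, a lymphatic growth factor, had 1.32, 1.05 and 1.10 after BMP6 and 1.67, 1.53 and 1.55 in control and fell by 0.43 (SE 0.05, adjusted p 0.00177). Vegfa (0.10, adjusted p 0.462) and the main VEGF receptor Kdr (0.07, 0.721) did not pass. Flt1 was also the 1 of the 9 endothelial markers that passed; their mean level ran from -1.12 to -1.003 on the BMP6 4 h arrays and from -1.122 to -1.051 on the control arrays, and their part in the result was not tested.

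Transcription factors and markers of the epithelial or endothelial to mesenchymal transition moved in opposite directions. Snai1, a repressor of cadherin genes, had 1.002, 0.88 and 0.93 after BMP6, within 0.12 of each other, and 0.08, -0.08 and 0.43 in control. It rose by 0.79 (SE 0.10, adjusted p 0.00243 paired and 0.0555 unpaired). Hmga2, a chromatin protein that acts with SMADs on Snai1 in mouse cells, had 0.71, 1.32 and 1.10 after BMP6 and 0.23, -0.04 and 0.12 in control, with replicate 1 moving least. It rose by 0.94 (SE 0.13, adjusted p 0.00313 paired and 0.0282 unpaired). Lower in BMP6 cells were the mesenchymal factor Prrx1 (-0.49, SE 0.08, adjusted p 0.00754), the mesenchymal cadherin Cdh11 (-0.45, SE 0.10, adjusted p 0.0251) and Tcf4, an E protein (-0.33, SE 0.06, adjusted p 0.0144). Of the 15 genes of this list 2 thus rose and 3 fell (median -0.10). Snai2 (-0.10), Twist1 (-0.04) and Zeb2 (0.00) did not pass. Without replicate 2 none of the 15 passed.

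Prrx1 and Cdh11 are also fibroblast markers, as is the collagen gene Col3a1, which fell by 0.24 (SE 0.06, adjusted p 0.0363) as the mean of a probe at -0.46 and one at -0.02. These were 3 of 6 measured fibroblast markers, of which none rose, and Col1a1 (-0.11), Col1a2 (-0.07) and Postn (0.03) did not pass. Their mean level ran from -0.986 to -0.427 on the BMP6 4 h arrays and from -0.664 to -0.282 on the control arrays. The part of fibroblast-like cells or RNA in these results was not tested.

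Adamts5 had the greatest fall of all genes. It encodes an aggrecanase, a secreted protease that cuts large proteoglycans, and had 0.75, -0.41 and 0.10 after BMP6 and 1.73, 1.19 and 1.58 in control. Replicates ranked the same way in both groups, with replicate 2 lowest, and the change was -1.35 (SE 0.11, 0.392 of the control level, adjusted p 0.000187 paired and 0.0959 unpaired). Adamts1, a related protease with antiangiogenic activity, had -0.45, -0.85 and -0.79 after BMP6 and 0.35, -0.15 and 0.13 in control and fell by 0.81 (SE 0.06, adjusted p 0.000187). Another member, Adamts6, lay clear below control but did not pass (-0.33, adjusted p 0.066), and Adamts4 changed by 0.08. The metalloprotease inhibitor Timp1 moved the other way, with 2.72, 2.76 and 2.86 after BMP6 and 1.89, 1.83 and 2.40 in control, and rose by 0.75 (SE 0.09, adjusted p 0.00143). Plaur, the urokinase receptor, rose by 0.36 (adjusted p 0.0346). These made 2 higher and 2 lower of 36 matrix protease genes (median 0.02).

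Matrix and integrin genes included 5 of 63 that rose and 3 that fell (median change 0.02). The paired basement membrane chains Col4a1 and Col4a2, whose genes lie side by side, both rose. Col4a1 had -0.54, 0.09 and -0.21 after BMP6 and -1.23, -0.73 and -0.53 in control, with each pair higher by 0.31 or more (change 0.61, SE 0.10, adjusted p 0.00644). Col4a2 rose by 0.28 (SE 0.05, adjusted p 0.0124). The laminin chain Lamc1 rose by 0.23, the fibronectin receptor chain Itga5 by 0.44 and the laminin receptor chain Itga6 by 0.30 (adjusted p 0.0318, 0.00104 and 0.0099). Probes of a gene differed in size, at 0.44 and 0.12 for Col4a2, 0.39 and 0.07 for Lamc1 and 0.68 and 0.19 for Itga5, and the smaller value of each did not pass over all probes. Besides Col3a1, the short-chain collagen gene Col8a1 fell by 0.42 (adjusted p 0.00792) and the fibril-associated Col14a1 by 0.27 (adjusted p 0.0484). Fibronectin, Fn1, did not pass (0.28, adjusted p 0.121).

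Genes of the oxidative stress response included 4 of 27 that rose and 1 that fell, while the list's median was -0.04, with 0.04, 0.06 and -0.17 in pairs 1, 2 and 3. Txnrd1, thioredoxin reductase, had 2.36, 2.23 and 2.38 after BMP6 and 1.60, 1.38 and 1.96 in control, clear of each other (change 0.67, SE 0.10, adjusted p 0.00463). Hmox1, heme oxygenase 1, had 0.82, 1.33 and 1.22 after BMP6 and 0.19, 0.51 and 0.74 in control (change 0.65, SE 0.08, adjusted p 0.00212). Srxn1, sulfiredoxin, rose by 0.41 and Gclm, a subunit of the glutathione synthesis enzyme, by 0.36 (adjusted p 0.00246 and 0.0198). All 4 are targets of the transcription factor NRF2. Another target, Nqo1, did not pass (0.37, adjusted p 0.106), and the microsomal glutathione transferase Mgst1 fell by 0.51 (SE 0.11, adjusted p 0.0281).

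Cavin2, a coat protein of caveolae, the membrane pits that are dense in endothelium, crossed the reference level. It had -0.73, -1.27 and -1.03 after BMP6 and 0.22, 0.12 and 0.47 in control. The gap between the groups was 0.85, and the change was -1.28 (SE 0.10, 0.413 of the control level, adjusted p 0.000187 paired and 0.00152 unpaired). The other 11 caveolar genes measured did not pass, among them the coat protein Cavin1 (-0.31, adjusted p 0.0654) and the caveolins Cav1 (-0.11, 0.492) and Cav2 (-0.28, 0.0561). Without replicate 1, 3 of the 12 passed, each downward.

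Secreted guidance cues fell, 3 in number. Sema3a, a repellent of axons and endothelial cells, had 0.77, -0.11 and 0.11 after BMP6 and 1.24, 1.06 and 1.21 in control; control arrays lay close together while BMP6 replicate 1 stood above the others. It fell by 0.91 (SE 0.11, adjusted p 0.00187 paired and 0.113 unpaired). Sema3c, a relative that acts in the outflow tract of the heart, had 0.17, 0.33 and 0.31 after BMP6 and 0.82, 1.07 and 0.77 in control and fell by 0.62 (SE 0.07, adjusted p 0.00177 paired and 0.0282 unpaired). Ntn1, netrin, fell by 0.29 (adjusted p 0.0363). These were 3 of 26 measured cues and receptors, of which none rose, and the list's median was 0.00. The receptors Nrp1 (0.08) and Nrp2 (0.16) did not pass. Among 10 ephrins and Eph receptors, Epha2 rose by 0.38 and Efna5 by 0.21, and Ephb6 fell by 0.33 (adjusted p 0.00288, 0.0466 and 0.0245).

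Of 5 measured Armcx genes, which encode armadillo-repeat proteins and sit next to each other on the X chromosome, 3 fell together and none rose. Armcx2 had 1.33, 0.54 and 0.61 after BMP6 and 2.03, 1.39 and 1.56 in control, each replicate lower by 0.71 or more (change -0.84, SE 0.06, adjusted p 0.000187). Armcx3, whose protein sits on mitochondria and bears on their transport in neurons, had 0.15, -0.25 and -0.15 after BMP6 and 0.95, 0.53 and 0.51 in control (change -0.74, SE 0.06, adjusted p 0.000187). Armcx6 had -0.11, -0.48 and -0.29 after BMP6 and 0.60, 0.23 and 0.28 in control (change -0.66, SE 0.07, adjusted p 0.000987). None of the 3 overlapped between groups, where 838 (10.1%) of all genes had no overlap. None of the 3 passed unpaired (adjusted p 0.346, 0.121 and 0.291). The neighbours Armcx1 (-0.13, adjusted p 0.181) and Armcx4 (-0.01, 0.961) did not pass. These genes are similar in sequence, and whether their probes share targets was not tested.

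Genes that hold back the cell cycle or follow p53 and FOXO factors included 4 of 26 that fell and 2 that rose (median change -0.05). Rbl2, the pocket protein p130 of resting cells, had -0.87, -1.27 and -1.10 after BMP6 and -0.42, -0.60 and -0.20 in control and fell by 0.67 (SE 0.08, adjusted p 0.00123). Sesn1, a stress-induced sestrin, had -1.28, -1.80 and -1.68 after BMP6 and -0.94, -1.15 and -0.88 in control and fell by 0.60 (SE 0.07, adjusted p 0.0019). Gas1, a growth arrest protein and hedgehog coreceptor, fell by 0.57 (adjusted p 0.000978), although control replicate 2 lay among the BMP6 arrays, and Sesn3 fell by 0.28 (adjusted p 0.01). Plk2, a polo-like kinase, and the Kruppel-like factor gene Klf6 rose by 0.36 and 0.19 (adjusted p 0.0053 and 0.0466), and a related factor gene, Klf5, by 0.36 (adjusted p 0.00294). The Klf6 groups overlapped, and its call held in 1 of the 12 fits that left out 1 array. The cell cycle inhibitor Cdkn1a did not pass (0.28, adjusted p 0.121).

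Of 53 replication and division genes 3 passed, a share near the 6.02% over all genes. Cdk6, a G1 kinase, rose by 0.27 (adjusted p 0.0216), and the mitotic genes Kif20a and Ccnb2 fell by 0.42 and 0.36 (adjusted p 0.0466 and 0.0315). The median change of the list was -0.10, with medians of 0.07, -0.105 and -0.23 in pairs 1, 2 and 3. Without replicate 1, 8 of them fell.

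Other leading genes that fell had separate functions. Tef, a transcription factor driven by the circadian clock, had -0.54, -0.42 and -0.40 after BMP6 and -0.19, 0.42 and 0.55 in control, with control replicate 1 well below its fellows (change -0.71, SE 0.12, adjusted p 0.00638); it was the 1 of 13 clock genes that passed. Pmp22, a membrane protein best known from myelin, had -0.32, -0.65 and -0.37 after BMP6 and 0.17, 0.16 and 0.43 in control (change -0.69, SE 0.07, adjusted p 0.000501). Cyp39a1, a hydroxylase of cholesterol breakdown, had -1.85, -1.63 and -1.69 after BMP6 and -1.22, -1.06 and -1.02 in control (change -0.63, SE 0.09, adjusted p 0.00392). The predicted gene Gm8579 had 1.37, 0.93 and 0.92 after BMP6 and 1.86, 1.91 and 1.81 in control (change -0.79, SE 0.13, adjusted p 0.006). None of these 4 overlapped between groups, but they were chosen among genes that passed. Over all genes, 838 (10.1%) had no overlap.

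Protein kinase C genes and substrates split by member, 2 of 13 higher and 3 lower. Prkcd, the delta isoform, had 0.53, 0.61 and 0.55 after BMP6 and 0.06, 0.03 and 0.13 in control, and rose by 0.48 (SE 0.06, adjusted p 0.00177 paired and 0.0229 unpaired). The atypical isoform Prkci and the related kinase Prkd1 fell by 0.31 and 0.58 (adjusted p 0.00867 and 0.00275). The 2 actin-binding substrates parted: Marcksl1 rose by 0.49 (SE 0.10, adjusted p 0.0178) and Marcks fell by 0.49 (SE 0.07, adjusted p 0.00354). Adarb1, an RNA-editing adenosine deaminase, had 0.32, 0.34 and 0.25 after BMP6 and -0.20, -0.18 and -0.18 in control, a narrow spread on both sides, and rose by 0.49 (SE 0.05, adjusted p 0.000987 paired and 0.0176 unpaired).

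Among 19 histone acetyltransferases and deacetylases, 2 fell and none rose (median -0.07). Kat2b, the acetyltransferase PCAF, had -0.24, -0.24 and -0.21 after BMP6 and 0.12, 0.17 and 0.11 in control and fell by 0.36 (SE 0.05, adjusted p 0.00311 paired and 0.0422 unpaired). Sirt5, a mitochondrial sirtuin that removes acyl groups from metabolic enzymes, fell by 0.53 (SE 0.06, adjusted p 0.00143).

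**Figure D3:**
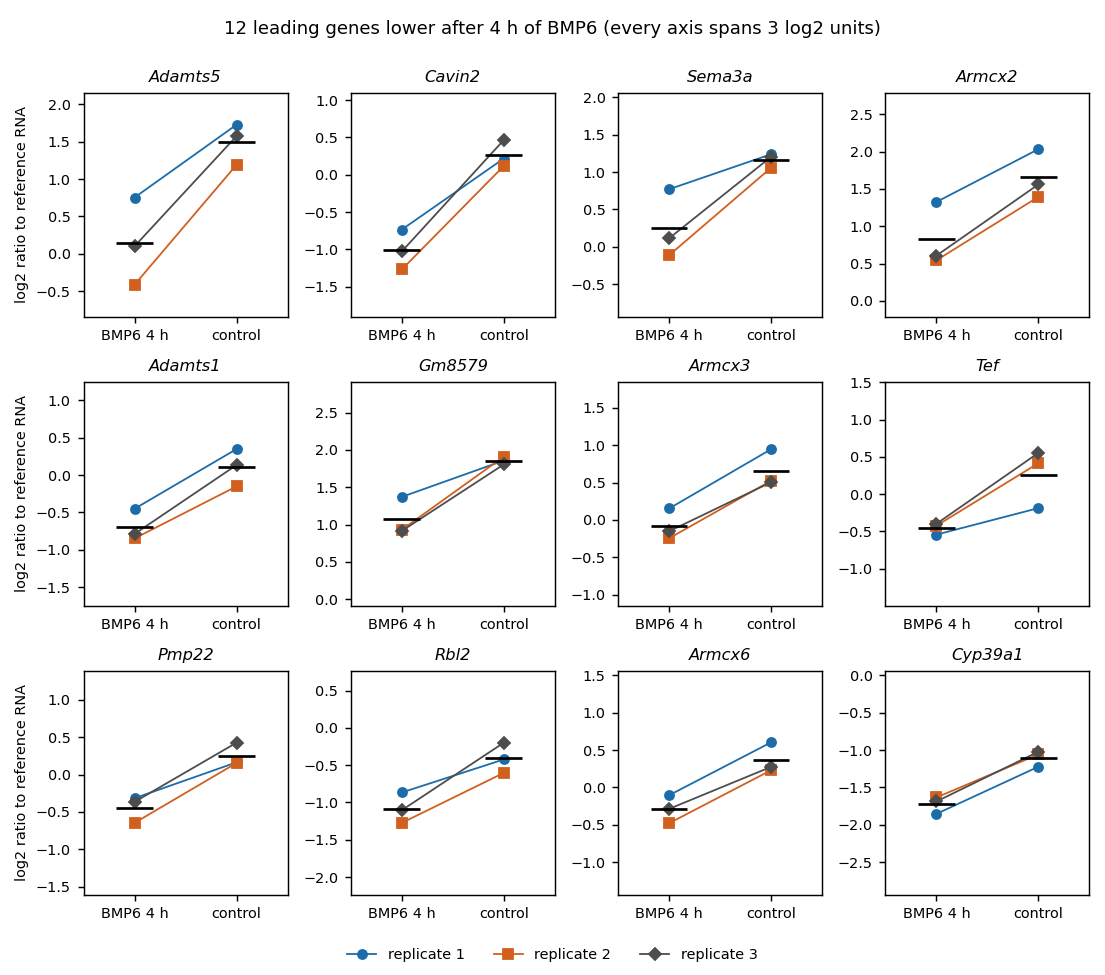
Levels (log2 ratio to the reference RNA) of the 12 leading genes that fell, on the 3 BMP6 4 h arrays and the 3 control arrays; lines join arrays of the same replicate number and black bars are group means. Every line rises towards control, and the groups overlap for none of the 12 genes. The genes were chosen among those that passed and moved alike in each pair, and 10.1% of all genes had no overlap.

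Genes of glycolysis and glycan branching passed in both directions, and those of sterol synthesis only downward. Over all genes more fell (3.75%) than rose (2.27%). Of 19 genes of glycolysis and hypoxia, 4 fell and 1 rose (median -0.08). The glycolytic enzymes Tpi1 and Pfkm fell by 0.54 and 0.25 (adjusted p 0.0188 and 0.0433). Pdk1, an inhibitor of pyruvate dehydrogenase, fell by 0.24, and the collagen hydroxylase P4ha1 by 0.32 (adjusted p 0.0402 and 0.025). Hk2, the inducible hexokinase, rose by 0.35 (SE 0.06, adjusted p 0.00724). Of 18 sterol synthesis genes Dhcr7, which makes cholesterol in its last step, fell by 0.53 and Fdft1, squalene synthase, by 0.20 (adjusted p 0.00724 and 0.0327), and none rose. Glycan-branching enzymes gave 2 higher and 1 lower of 27: B4galt5 rose by 0.49, St6galnac4 rose by 0.29 and Gcnt1 fell by 0.62 (adjusted p 0.00246, 0.0244 and 0.0105).

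Several large gene groups had few or no members that passed. Of 55 respiratory chain genes Ndufv2, a complex I subunit, was the 1 that passed (-0.27, adjusted p 0.0319). The list's median of -0.12 rested mostly on pair 3, with -0.07, 0.02 and -0.34 in pairs 1, 2 and 3. Of 45 ribosomal protein genes 0 passed in the paired limma fit, with a median of -0.14 that came from pair 3 alone: the medians were 0.02, 0.06 and -0.55 in pairs 1, 2 and 3. None of 30 proteasome genes, 18 genes of the unfolded protein response or 9 RGS genes passed, with medians of -0.06, 0.08 and 0.03. The proteasome median too was lowest in pair 3, at 0.06, -0.01 and -0.27 in pairs 1, 2 and 3. Of 54 heat shock and chaperone genes, the small heat shock protein gene Cryab rose by 0.40 (adjusted p 0.013) and none fell.

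**Figure D4:**
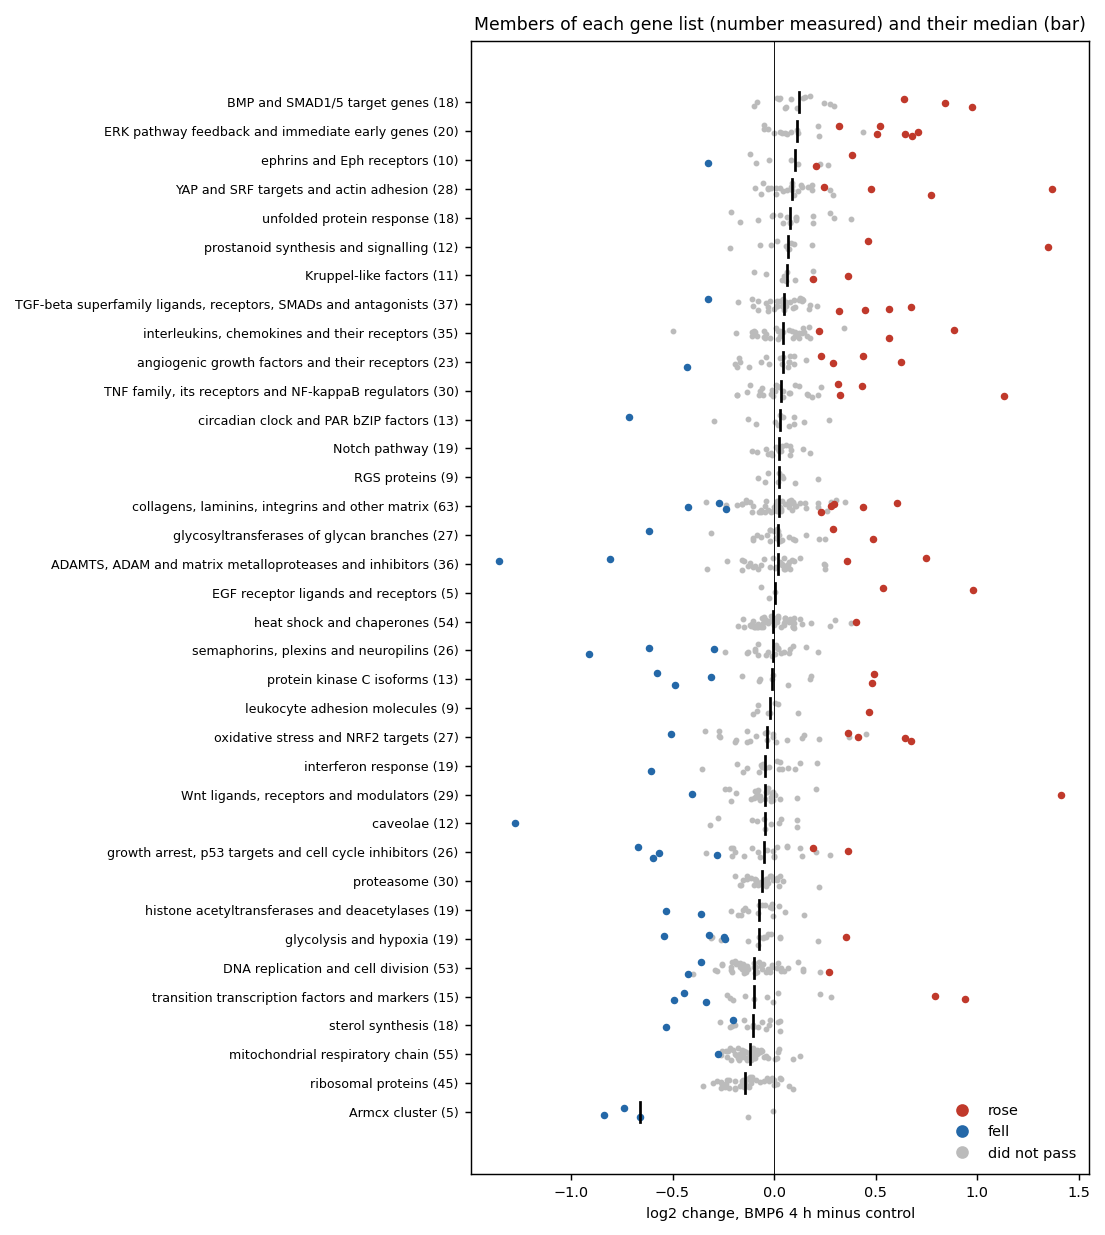
Change after 4 h of BMP6 (horizontal axis, log2 units, BMP6 4 h minus control) of the measured members of the gene lists described here, 1 point a gene and a black bar at the median of the list, with the number measured in brackets. Red members rose, blue members fell and grey members did not pass; medians lie between -0.142 and 0.125 except for the Armcx cluster at -0.66.

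The same BMP6 was also given for 12 and 24 h, and the 3 comparisons share the 3 control arrays, so the values are set side by side. Against control, 498 genes (6.02%) passed at 4 h, 156 (1.89%) at 12 h and 14 (0.169%) at 24 h. The 188 genes that rose at 4 h had median changes of 0.364, 0.137 and 0.056 at 4, 12 and 24 h, and the 310 that fell had -0.312, -0.189 and -0.079. Since the genes were chosen at 4 h, smaller values at the other times are partly built in. Compared directly over all genes, 335 genes (4.05%) differed between 24 h and 4 h: 182 (2.2%) were lower at 24 h and 153 (1.85%) higher. Between 12 h and 4 h, 107 (1.29%) differed, 85 (1.03%) lower at 12 h and 22 (0.266%) higher. These contrasts do not use the control levels, but the control arrays still enter the fit and its spread. Leaving out 1 control array gave 292 to 545 genes between 24 h and 4 h and 63 to 236 between 12 h and 4 h. The unpaired fit gave 6 genes (0.0726%) between 24 h and 4 h. Between 12 h and 4 h the unpaired limma fit gave 0 (0%), with 368 at an unadjusted p under 0.05.

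The Id genes were still above control at 24 h. Id1 had changes of 0.98, 0.97 and 1.07 at 4, 12 and 24 h, Id2 0.84, 1.27 and 1.19, and Id3 0.64, 0.79 and 0.92, and each passed against control at each time. Between 24 h and 4 h the difference was 0.10 for Id1 (adjusted p 0.652), 0.34 for Id2 (0.197) and 0.28 for Id3 (0.0747). Gas1, Sema3c and Adamts1 also passed at each time, with changes of -0.57, -0.61 and -0.56 for Gas1 and of -0.62, -0.64 and -0.54 for Sema3c and of -0.81, -0.62 and -0.42 for Adamts1.

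Of the 24 leading genes, 21 differed between 24 h and 4 h, 9 that had risen and were lower at 24 h and 12 that had fallen and were higher, while Id1, Id2 and Snai1 (-0.39, adjusted p 0.0638) did not pass. The 4 h arrays that chose these genes enter that contrast too. Ccn2 changed by 1.37, -0.01 and -0.18 at 4, 12 and 24 h and was lower at 24 h than at 4 h by -1.55 (adjusted p 0.00401). Vcl changed by 0.77, 0.00 and 0.05. Ptgs2 had 1.35, 0.65 and 0.30, with a difference between 24 h and 4 h of -1.05 (adjusted p 0.00802). Wnt2 had 1.41, 0.96 and 0.54 and passed at 12 h (adjusted p 0.00422) but not at 24 h (0.192). Timp1 kept its rise to 12 h, with 0.75, 0.75 and 0.17, and Cyp39a1 was lowest at 12 h, with -0.63, -0.89 and -0.12. Among the genes that fell, Adamts5 had -1.35, -0.76 and -0.50, Cavin2 -1.28, -0.59 and -0.39, and Armcx2 -0.84, -0.50 and -0.08.

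**Figure D5:**
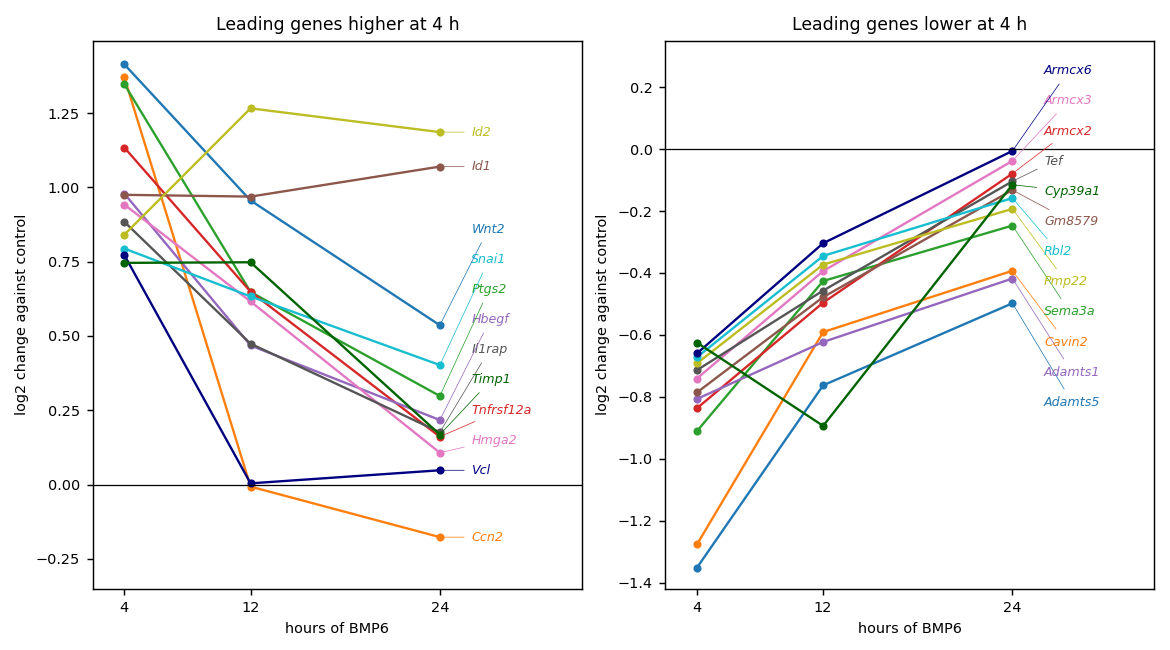
Change against control (vertical axis, log2 units) at 4, 12 and 24 h of BMP6 (horizontal axis, hours) of the 12 leading genes that rose at 4 h (left) and the 12 that fell (right), 1 line a gene. Id1 and Id2 stay near or above 1, while the lines of the other genes run towards 0 by 24 h; the genes were chosen at 4 h and each time shares the control arrays.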

How the data were processed

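The deposited values are log ratios, taken here as log2; per the labels, the authors scanned the arrays with GenePix software and normalized them by a modified local quantiles method, and no base, sign or detection call is given in the sources used here. From these values, probes of a gene were averaged and the 12 arrays were fitted with limma 3.58.1 (lmFit and eBayes in R 4.3.3, tests two-sided), taking treatment group and replicate number as terms. Adjusted p-values are Benjamini-Hochberg over all 8267 genes or all 20280 probes, with a threshold of 0.05. Same-numbered arrays of different groups deviated together from their group means (correlations 0.443 to 0.695, against -0.564 to 0.069 for other numbers); the numbers stand in the titles, and what arrays of 1 number have in common is not stated. The number held 54.1% of the sum of squares and treatment 20.6%. Symbols were updated through RefSeq for 10548 of 10576 named probes, and 507 probes with several symbols and 9704 rows without a name gave no gene.

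Named genes are the 12 greatest rises and falls that passed with each array left out, genes that passed unpaired, up to 6 called members of each list by smallest p, and fixed genes of the prostanoid, BMP and endothelial sets; other genes are named after their values were seen. The comparison, the lists and the rules were chosen with earlier results of these data known. In a simulation of 20280 probes, the paired fit found 88% of the effects set at 0.5 log2 units and 100% of those set at 1. Of its 210 calls, 16 were wrong. The unpaired fit found 32% and 100%, and 1 of its 167 calls was wrong. No size below 0.5 was simulated, so recovery at the median called changes of 0.364 and -0.312 is not known. Whether the real arrays vary as the simulated ones do was not tested. Alternatives were the unpaired fit, the 6 arrays alone, 2 other scalings, another variance prior, another choice of probe, the deposited row numbers, the methods' t-test and leaving out arrays. The result of 1 gene list is not reported here.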

Additional observations from a re-analysis of the deposited data

Results flagged for a closer look

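Among the 115 genes named by rule, 73 had an effect at 24 h that differed from that at 4 h, at an adjusted p under 0.05 in the paired fit over all genes: 49 were lower at 24 h than at 4 h and 24 higher. Differences are 24 h minus 4 h in log2 units, and the 4 h arrays, by which each of the 73 had passed against control, enter each of them; without the replicate block the same contrast gave 6 genes in all. Groups of 3 arrays are too small for the test of outlying samples.

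Of prostanoid enzymes and growth factors that had risen, the differences were -1.05 for Ptgs2, -0.88 for Wnt2, -0.52 for Ptgis, -0.76 for Hbegf and -0.47 for Ereg. Further growth factors and receptors differed by -1.55 for Ccn2, -0.47 for Fgf2, -0.44 for Pdgfa, -0.25 for Flt1, -0.33 for Tgfb1 and -0.31 for Acvr1, with -0.31 for Skil, the SMAD corepressor gene. Cytokine and NF-kappaB genes differed by -0.97 for Tnfrsf12a, -0.71 for Il1rap, -0.78 for Ccl2, -0.48 for Tnfaip3, -0.37 for Tnfaip2 and -0.20 for Csf3. ERK feedback genes differed by -0.80 for Dusp6, -0.88 for Errfi1, -0.63 for Phlda1, -0.60 for Ier3, -0.55 for Dusp4 and -0.32 for Myc. Adhesion, actin and matrix genes differed by -0.72 for Vcl, -0.42 for Actn1, -0.36 for Itga5, -0.34 for Cd44, -0.71 for Col4a1, -0.28 for Col4a2 and -0.58 for Timp1, and signalling and guidance genes by -0.34 for Tiam1, -0.33 for Arhgap31, -0.30 for Epha2 and -0.23 for Efna5. Oxidative stress genes differed by -0.72 for Txnrd1, -0.72 for Hmox1, -0.34 for Srxn1 and -0.33 for Gclm, and transcription and cell cycle regulators by -0.84 for Hmga2, -0.30 for Klf5, -0.43 for Plk2 and -0.28 for Cdk6. The remaining genes that had risen differed by -0.43 for Prkcd, -0.58 for Marcksl1, -0.40 for Adarb1, -0.56 for B4galt5, -0.28 for St6galnac4 and -0.27 for Hk2.

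Of genes that had fallen, the protease, caveolar and guidance genes differed by 0.85 for Adamts5, 0.39 for Adamts1, 0.88 for Cavin2, 0.66 for Sema3a and 0.46 for Ephb6. The Armcx genes differed by 0.76 for Armcx2, 0.70 for Armcx3 and 0.65 for Armcx6, and growth arrest and clock genes by 0.51 for Rbl2, 0.44 for Sesn1, 0.24 for Sesn3 and 0.61 for Tef. Secreted and mesenchymal genes differed by 0.39 for Vegfd, 0.44 for Tgfb2, 0.62 for Cdh11 and 0.37 for Prrx1. The kinase, acetylation and other signalling genes differed by 0.47 for Prkd1, 0.39 for Marcks, 0.33 for Kat2b, 0.35 for Sirt5 and 0.26 for Arhgap18, and the remaining genes by 0.50 for Pmp22, 0.51 for Cyp39a1 and 0.65 for Gm8579.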

How the results depend on the processing

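The paired fit called 498 genes and 548 probes at 4 h. Without the replicate block it called 14 genes and 20 probes, and with the block on the 6 arrays of BMP6 4 h and control alone 81 genes and 61 probes. Adjusting named and unnamed rows together, an alternative chosen after seeing the data, gave 290 genes, and names at the deposited row numbers gave 231. The methods' t-test called 864 probes unadjusted and 0 after Benjamini-Hochberg. Leaving out arrays, singly or by replicate number, gave 20 to 642 genes and 0 to 745 probes at 4 h; the 20 and the 0 came without replicate 2, where limma still gave 1085 genes and 1941 probes at an unadjusted p under 0.05. Genes also moved by over 1.5 times without replicate 3 (139), control replicate 2 (208), BMP6 4 h replicate 2 (238) and BMP6 4 h replicate 3 (215). Between 12 h and 4 h the paired fit called 20 probes, against 0 without the block (614 by limma at an unadjusted p under 0.05), 9 after quantile normalization, 9 after centring on the median and 0 to 123 with arrays left out. Between 24 h and 4 h it called 420 probes, against 7 without the block and 0 to 548 with arrays left out. The counts of 0 with arrays left out stood beside 1347 to 2143 probes (12 h and 4 h) and 1801 to 2581 probes (24 h and 4 h) at an unadjusted p under 0.05 by limma. Fits with fewer arrays have fewer degrees of freedom, and beyond that the cause was not tested.

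None of the 108 named genes that passed turned its sign where it was recomputed; names at the deposited row numbers were not followed gene by gene. Of the named genes that had not passed, Kdr turned to -0.07 without control replicate 3 and -0.045 without replicate 3, and Bmp6 to -0.02 without replicate 3. Of the 108, 94 lost the call without the block, 90 without replicate 2, 60 in the fit of 6 arrays, 48 without replicate 3 and 33 without replicate 1, against at most 5 under another scaling, variance prior or choice of probe. With each of the 12 arrays left out in turn, 65 kept the call throughout. Efna5, Klf6 and Pfkm kept it in 1 of these 12 fits, and Fdft1 and Pdk1 in 2. Tgfb2, Col3a1, Ntn1, Flt1, Kif20a and Tnfaip2 kept it in 3. All 24 leading genes passed without replicate 1, 13 without replicate 2 and 20 without replicate 3, and the 6 arrays alone lost Id2. Those lost without replicate 2 were Ptgs2, Id2, Hmga2, Snai1, Vcl, Timp1, Sema3a, Gm8579, Tef, Pmp22 and Rbl2. Quantile normalization, centring, the other prior and the highest probe gave 551, 514, 527 and 485 genes. List medians moved by more than the spread between replicates in 15 recomputations, each with a replicate left out, and not in 220. Counts of called list members moved by over 1.5 times in 76 and not in 65. No spot signals were used here, so limits of detection are not stated.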

Other observations

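Gene groups noticed only after the values of all genes had been seen are given here as values, with no test of a group. Of 17 measured genes of mitochondrial fatty acid oxidation, 7 fell after 4 h of BMP6 and none rose, each of the 17 lay below control, and their median change was -0.18 against -0.01 over all genes, of which 3.75% fell. Acadm, which starts the oxidation of medium-chain fatty acids, had -1.80, -2.13 and -1.99 on the BMP6 4 h arrays and -1.40, -1.55 and -1.17 on the control arrays. The groups were clear of each other, and it fell by 0.59 (SE 0.07, adjusted p 0.00163 paired and 0.121 unpaired). The acyl-CoA dehydrogenases Acadl and Acadsb fell by 0.28 and 0.25 (adjusted p 0.0138 and 0.0138), and Mlycd, which removes an inhibitor of fatty acid import, by 0.31 (adjusted p 0.021). Hadh, Ech1 and Echs1, enzymes of later steps, fell by 0.30, 0.25 and 0.18 (adjusted p 0.0475, 0.0257 and 0.0355). The list's median change was -0.22 at 12 h and -0.10 at 24 h, and without replicates 1, 2 and 3 in turn 3, 0 and 1 members fell.

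Of 42 ribosome biogenesis genes, 7 rose, none fell and 38 lay above control, with a median change of 0.13. Over all genes 2.27% rose, and 3931 of 8267 lay above control. The list's medians were 0.22, 0.15 and 0.02 in pairs 1, 2 and 3. Eif6, a factor that keeps ribosomal subunits apart, had 0.86, 0.94 and 0.91 after BMP6 and 0.48, 0.44 and 0.73 in control and rose by 0.36 (SE 0.07, adjusted p 0.0124). Rrp9, a part of the complex that processes ribosomal RNA, rose by 0.33 (SE 0.05, adjusted p 0.00311). The list's median was 0.13 at 12 h as well and 0.03 at 24 h. Without replicate 2 none of its members passed.

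Enzymes that make the glycosaminoglycan chains of proteoglycans gave 8 of 26 higher and 3 lower (median 0.005). Of all genes, 2.27% were higher and 3.75% lower. Without replicate 2 none of the 26 passed, and none passed unpaired. Chst11, a chondroitin sulfotransferase, had 0.47, 0.96 and 0.87 after BMP6 and 0.10, 0.08 and 0.28 in control, clear of each other, and rose by 0.61 (SE 0.09, adjusted p 0.00323). Gfpt2 and Ugdh, which supply sugar precursors, rose by 0.43 and 0.38, and Ext1, which extends heparan sulfate, by 0.32 (adjusted p 0.00198, 0.00446 and 0.00698). Ugp2, which also supplies a precursor, fell by 0.36 (adjusted p 0.0107). Cemip, which takes part in hyaluronan breakdown, rose by 0.42 at 4 h (adjusted p 0.00792) and had changes of 0.33 and 0.48 at 12 and 24 h.

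Among 53 further actin regulators and LIM proteins, 12 rose and 9 fell (median -0.03), against 2.27% and 3.75% over all genes. Without replicate 2, 1 of them rose and 1 fell, and none passed unpaired. The actin oxidase Mical2 had 1.27, 1.46 and 1.26 after BMP6 and 0.79, 0.94 and 0.56 in control and rose by 0.57 (SE 0.05, adjusted p 0.000501), and the crosslinker Flnc rose by 0.47 (SE 0.09, adjusted p 0.0172). Add3, an adducin of the membrane skeleton, had -0.28, -0.33 and -0.19 after BMP6 and 0.24, 0.21 and 0.49 in control and fell by 0.58 (SE 0.05, adjusted p 0.000485). The LIM protein gene Pdlim2 fell by 0.43 (SE 0.06, adjusted p 0.00372).

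Near the Armcx genes on the X chromosome, Bhlhb9, of the same family, fell by 0.40 (SE 0.07, adjusted p 0.00792) and Tceal9 by 0.42 (SE 0.08, adjusted p 0.0118), while Bex3 did not pass (-0.25, adjusted p 0.0503). A probe annotated with the old spelling TIMP1 rose by 0.54 (adjusted p 0.00275), beside 0.75 for Timp1. Of 100 called genes with 2 or more probes, 99 had each probe move in the direction of the gene. The gene value is the mean of these probes and chose the genes, so much of this is built in. Over all genes with 2 or more probes, the 4 h changes of the first 2 probes correlated at r = 0.44.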
